A study of Mus musculus with 6 samples.

Results

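The deposited cell annotation of this mouse testis atlas names a class Round ST(Step 6-7), and this is the transcriptome of that class. Its members are all cells that carry this fine name in the deposited cell table, 8790 of 46495 cells. The 6 libraries were made by 10x Genomics 3′ single-cell RNA sequencing of testis cells from adult C57BL6 mice of 2 genotypes named NONO and NONO deltaER. Of these cells 1658 came from library TA, 1246 from TB and 1490 from TC, the 3 NONO libraries. The NONO deltaER libraries gave 1671 cells in TD, 1177 in TE and 1548 in TF. NONO is an X-linked nuclear protein that binds RNA and DNA and belongs to paraspeckles, RNA-protein bodies of the nucleus. The labels do not say what deltaER alters in it. No treatment is named, and the mice of both groups share strain and age class. The cell table calls the groups WT and KI. These were read as NONO and NONO deltaER, and if that reading were wrong every direction by genotype would turn. No label says whether each library is a different mouse, and a p-value therefore speaks only of the spread among these 6 libraries, part or all of which may be technical.

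Round spermatids are haploid cells that build an acrosome, a flagellum and a shaped head without dividing. During this change histones are replaced by transition proteins and then by protamines, small basic proteins that pack sperm DNA. The genes for these proteins are transcribed before the nucleus condenses and shuts down, and many of their mRNAs are stored and translated later, so a spermatid's RNA content depends on synthesis, storage and decay together.

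Depth was high for single cells, and it fell along the spermatid classes. The class held 77513085 UMI (unique molecular identifiers, 1 per counted transcript), between 10010345 and 16336012 per library. A cell had a median of 7408 ± 684 UMI (mean of the library medians ± SD, n = 6) and 1723 ± 54.0 genes. The class named Round ST(Step 5-6) had 14032 ± 1155 UMI and 3648 ± 134 genes in 4231 cells, and Round ST(Step 7-8) had 4338 ± 411 UMI and 943 ± 36.7 genes in 3116 cells. Among the 8790 cells, 241 had a barcode that also occurred in another library, and all were kept. The deposited broad class of every member is Elongating, although the fine name says round. Cell classes rest on the expression of the same cells, so all comparisons between classes below are descriptions with no test.

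The name was checked against its markers. Prm1, which encodes protamine 1, was higher here than in any other class, at 2186 ± 566 CPM (counts per 1000000 UMI of the class in a library, mean ± SD, n = 6). Tssk6, a testis-specific serine kinase gene needed for packing sperm DNA, stood at 115 ± 7.79 CPM, above the 39.5 CPM of the step 5-6 class. It was higher still in the step 7-8 class (234 CPM) and in the class Elongated ST (273 CPM), so it does not single out these cells. Tnp1, the third gene given as a marker, was not analysed here, and every share and rank below is counted without it. The 12 measured genes of a list for elongating and elongated spermatids took between 12.1% and 14.3% of the UMI per library, against a mean of 4.13% at step 5-6 and 17.5% at step 7-8. Most of that share here came from Prm2 and Tnp2, described below. The 11 measured genes of a list for round spermatids took 0.256% here, less than at step 5-6 (0.353%) and step 7-8 (0.280%). Their share was highest at step 4-5 (0.432%). Most of that share here came from Pgk2, so it does not describe the list as a whole. Defining genes of somatic cells were close to 0. The 10 Sertoli cell markers took at most 0.000869% of UMI in any library, against 0.719% in the Sertoli class. The 7 Leydig cell markers took at most 0.000214%, and the 7 macrophage markers at most 0.00509%.

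Prm2 and Tnp2, for protamine 2 and transition protein 2, were the most abundant of the transcripts analysed. Both genes lie beside Prm3 and Prm1 on the minus strand of chromosome 16 (mm10, GENCODE M21), in the order Tnp2 at chr16:10787936-10788660, Prm3 at chr16:10790505-10790914, Prm2 at chr16:10791380-10796134 and Prm1 at chr16:10796326-10805839. All 4 genes, all protein-coding, fit within 17.9 kb. Since Tnp2, Prm1 and Prm2 were all more abundant here than at step 5-6, the stretches just before their start sites are shown, from RefSeq (GRCm38.p6), in the direction of transcription. Positions count from the first transcribed base of RefSeq, so that -1 is the base before it. Capitals mark every match to TATANA or TGANGTCA on either strand, where N is any base. TGANGTCA is the cAMP response element TGACGTCA with 1 base left free, so every TGACGTCA is also a TGANGTCA. It is the element that CREM, a transcription regulator of spermatid genes, is known to bind. Both patterns were chosen after the sequences had been read.
Tnp2 chr16:10788656-10788805: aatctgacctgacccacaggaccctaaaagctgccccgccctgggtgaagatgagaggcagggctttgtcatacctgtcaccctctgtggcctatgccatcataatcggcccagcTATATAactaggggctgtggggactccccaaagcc
Prm2 chr16:10792106-10792255: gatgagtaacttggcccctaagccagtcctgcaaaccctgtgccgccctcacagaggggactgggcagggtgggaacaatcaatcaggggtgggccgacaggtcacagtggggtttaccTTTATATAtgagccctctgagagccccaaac
Prm1 chr16:10796880-10796973: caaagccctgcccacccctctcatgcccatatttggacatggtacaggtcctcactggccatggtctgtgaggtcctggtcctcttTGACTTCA
Prm1 chr16:10796839-10796868: ggccactagtaTCTATAagaggaagagggt

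A TATANA match began at position -35 on both strands in Tnp2 and at -29 on both strands in Prm2, where another began at -31 on the opposite strand only. In Prm1 both matches lay on the opposite strand only, TATANA beginning at -34 and TGANGTCA at -64. The Prm2 stretch lies in no exon of GENCODE M21. The Tnp2 stretch touches its first exon by 5 bases, and the Prm1 stretches overlap one of its exons by 7 and 30 bases. The Prm1 and Prm2 stretches lie inside the spans that GENCODE M21 gives these genes. Over the 17783 measured genes with a promoter of 300 bases in the RefSeq table (250 bases before to 50 after the start), TATANA occurred in 22.8% and TGANGTCA in 9.69%. Of 249 such genes whose level was highest in the present class, 21.7% held TATANA and 22.1% TGANGTCA, against 18.6% and 15.4% of the 1528 genes at 50 CPM or more there. The full TGACGTCA occurred in 5.62% of the 249 and 4.52% of the 1528. GTTGCC, another pattern counted, occurred in 26.9% and 20.4%, so a higher share was not particular to TGANGTCA. These matches describe letters, not binding sites.

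Prm2, the gene of protamine 2, had the higher level of the pair. It stood at 63870, 63937 and 70730 CPM in TA, TB and TC and at 72027, 70844 and 58138 CPM in TD, TE and TF. The genotypes overlapped, with the highest and the lowest library both NONO deltaER. Its mean of 66591 CPM compares with 16881 CPM at step 5-6, 111396 CPM at step 7-8 and 72890 CPM in the class Elongated ST. Counted per cell instead, Prm2 went from 270 UMI at step 5-6 to 589 here and 546 at step 7-8. Between this class and the next the CPM was thus higher and the UMI per cell lower.

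Tnp2, the gene of transition protein 2, had the sharper peak. It stood at 31998, 31908, 28893, 35750, 30332 and 25532 CPM in TA to TF, and every library exceeded the mean of every other class. Its level was 3.86-fold that of step 5-6 and 22.1-fold that of step 7-8. Per cell it went from 128 UMI to 272 and then to 6.83. The ratio of Prm2 to Tnp2 lay between 1.81 and 2.47 over the libraries of step 5-6, between 2.00 and 2.45 here, and between 65.8 and 92.9 at step 7-8. Tnp2 was read in 99.9% of the cells, against 98.0% at step 5-6 and 85.4% at step 7-8. In Sertoli cells, which should lack it, 49.2% of cells had a Tnp2 UMI at a median depth of 1836 UMI, against 7372.5 UMI here, so a share of cells with a UMI is no measure of expression on its own.

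Prm1 varied more between libraries than its neighbours. It stood at 2752, 2338 and 1627 CPM in the NONO libraries and at 2887, 1960 and 1550 CPM in the NONO deltaER libraries, so both genotypes held high and low libraries. It was 4.56-fold its step 5-6 level and 2.01-fold its step 7-8 level. Prm3, a protamine-related gene between Prm2 and Tnp2, stood at 122 ± 25.7 CPM (SD, n = 6), above step 5-6 (48.5 CPM) and below step 7-8 (134 CPM) in 6 of 6 libraries. H1fnt, the testis-specific linker histone H1T2 of the spermatid nucleus, was 2.04-fold its step 5-6 level and 2.44-fold its step 7-8 level, at 4570 ± 248 CPM.

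Several chromatin genes of earlier steps were lower than in the class before. Of 22 measured genes on the histone-to-protamine list, 12 reached 10 CPM in one of the 3 classes, and 7 of these 12 were higher here than at step 5-6 and 8 higher than at step 7-8. Over all 6893 genes at that level, 1491 were higher than at step 5-6 and 5517 higher than at step 7-8. The histone-to-protamine list took 10.9% ± 0.798 of UMI here, 3.28% at step 5-6 and 11.6% at step 7-8. Most of this share came from Prm2 and Tnp2 here and from Prm2 alone at step 7-8, so it does not describe the list as a whole. H3f3b, a gene of the replacement histone H3.3, was at 9.96 CPM, 32.0-fold below step 5-6. Chd5, a chromatin remodeller of histone removal, was at 321 CPM, lower than at step 5-6 (629 CPM) and higher than at step 7-8 (49.0 CPM). Brdt, the testis bromodomain protein that binds acetylated histones, was at 44.3 CPM after 220 CPM. Phf7 and Cdyl, a histone ubiquitin ligase and a chromodomain protein, were still abundant here and nearly absent in the next class. Phf7 stood at 3019 ± 202 CPM against 2618 CPM at step 5-6, and 89.2-fold lower at step 7-8. Per cell it was already lower here, with 26.6 UMI after 41.9. Cdyl stood at 903 ± 31.9 CPM against 1091 CPM, and 155-fold lower at step 7-8.

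**Figure D1:**
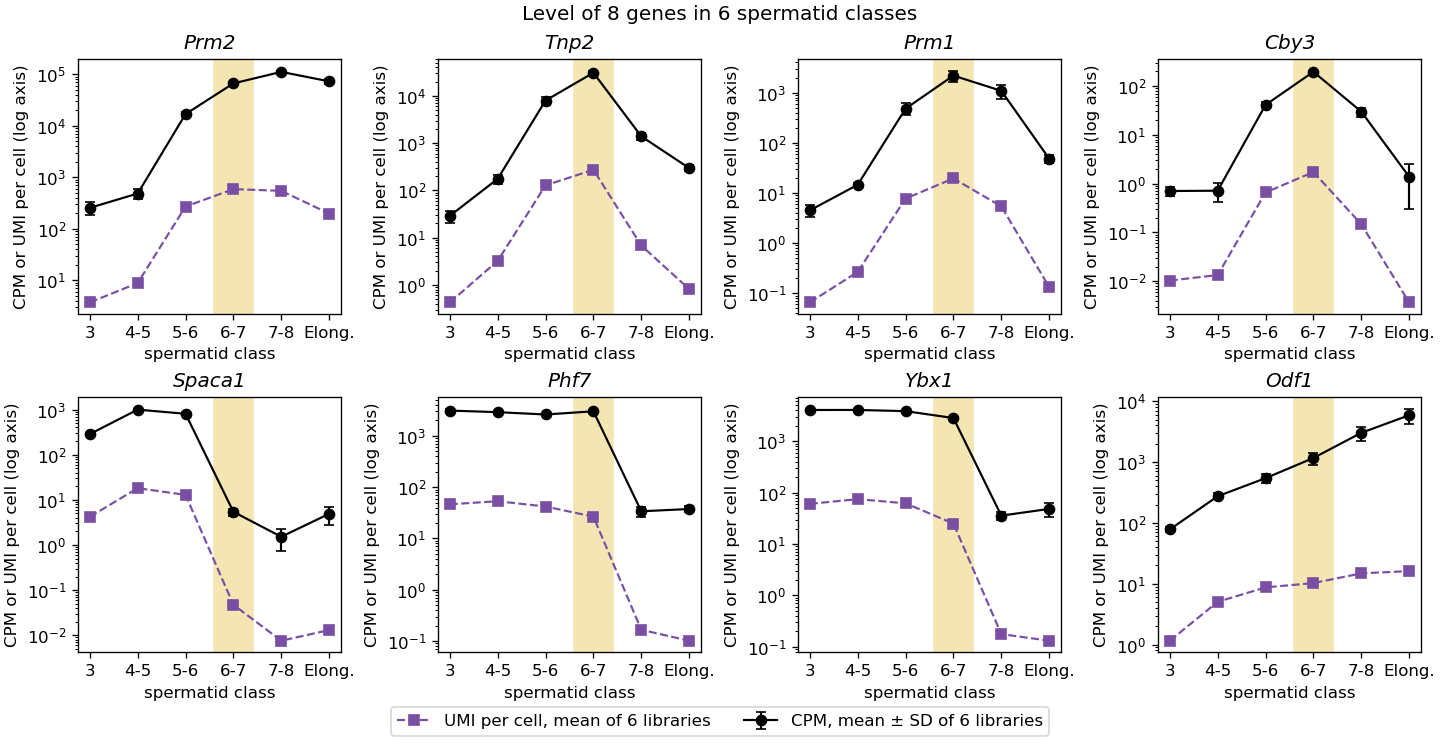
Level of 8 genes in 6 spermatid classes (horizontal axis, in the order of their names) on a log axis. Black points are CPM (mean ± SD of 6 libraries), purple squares are UMI per cell, and the class Round ST(Step 6-7) is shaded. Tnp2, Prm1 and Cby3 peak in the shaded class, Spaca1 is low from that class on, Phf7 and Ybx1 are low after it, and Odf1 is higher in the later classes.

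Few abundant genes were at their highest in the class by a wide margin. Of 1890 genes at 50 CPM or more, 319 (16.9%) were higher here than in the other 16 classes, but only 24 by 2-fold or more and 1 by 4-fold or more. The class with the next highest level was step 5-6 for 182 of the 319 and step 7-8 for 85. The gene past 4-fold was Cby3, a member of the chibby family of ciliary proteins. Cby3 stood at 202, 194, 180, 213, 190 and 193 CPM in TA to TF, 4.77-fold its level at step 5-6 and 6.55-fold that at step 7-8. Its libraries lay within a narrow band. The next by ratio after Tnp2 were Tex37 (529 CPM), 4930512J16Rik (72.5 CPM), 1700008P02Rik (241 CPM) and Defb33 (88.9 CPM), the last a beta-defensin gene. Tfam, whose protein packs and transcribes mitochondrial DNA, came to 952 ± 79.4 CPM, 2.64-fold its level at step 5-6 and 8.56-fold that at step 7-8. Psmf1, an inhibitor of the proteasome, came to 3159 ± 202 CPM, 2.33-fold step 5-6 and 2.66-fold step 7-8. Spata32, Prss58 and Odf3b, with 744, 410 and 133 CPM, also belong to the 15 genes of largest ratio.

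Besides Prm2 and Tnp2, the 20 most abundant transcripts included several of tail and mitochondrial sheath proteins. Smcp, the cysteine-rich protein of the mitochondrial capsule, stood at 16128 ± 879 CPM. Odf2, an outer dense fiber protein, stood at 13555 ± 945 CPM, Akap4, the main fibrous sheath protein, at 7602 ± 486 CPM, and the spermatogenic transcription factor Spz1 at 7273 ± 440 CPM. Gstm5 (7907 CPM), Spata6 (4701 CPM), Txndc2 (4676 CPM), Oaz3 (4596 CPM) and Fabp9 (4231 CPM) belong to the same 20. Zc3h7a and Peak1 differed most between libraries. Zc3h7a stood at 13361, 11530 and 13378 CPM in the NONO libraries and at 21045, 15498 and 8269 CPM in the NONO deltaER libraries. Peak1 stood at 10719, 9777 and 12446 CPM and at 13645, 14711 and 7449 CPM. TF was the lowest library for both. Both genes were also high in Sertoli cells, Zc3h7a at 33210 CPM and Peak1 at 26461 CPM, and highest in Elongated ST. Gm42418, a predicted gene that overlaps ribosomal RNA in the mouse annotation, had the same order of libraries as Zc3h7a, at 1122, 1112, 1279, 1818, 1543 and 919 CPM.

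From step 5-6 to the present class, many transcripts of the earlier spermatid were far lower. Among 2065 genes at 100 CPM or more in either class, 1244 were lower and 699 higher in 6 of 6 libraries, and 216 were lower by 10-fold or more while 0 were higher by 10-fold. The acrosome genes had the lowest median ratio of the 16 lists. Of 33 acrosome genes at 10 CPM or more, 26 were lower than at step 5-6, with a median log2 ratio of -3.04, against -1.10 over all 6893 genes at that level, of which 1491 were higher than at step 5-6. Spaca1, a membrane protein of the acrosome, was the gene with the steepest drop. It stood at 6.47, 4.99, 5.33, 4.35, 4.72 and 6.70 CPM in TA to TF, after 804 CPM at step 5-6, a 148-fold difference. Spaca1 was read in 4.05% of the cells, against 85.9% at step 5-6. With cells thinned to 2000 UMI the shares were 1.05% and 67.4%, and in Sertoli cells, which should lack the gene, 11.2%. The share of cells with a UMI here thus lay below that of cells that should lack the gene. Sertoli cells were shallower, at a median of 1836 UMI, and 893 of 1676 held too few UMI to be thinned. Their background may therefore differ from that of the present class, and whether the UMI here are background was not tested.

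Other acrosome genes had the same direction. Acrv1, an acrosomal vesicle protein, was 31.8-fold lower than at step 5-6. Izumo1, the sperm protein that binds the egg, stood at 18.6 CPM after 329 CPM. Fam209 went from 1591 to 45.1 CPM, Acr, the protease acrosin, from 388 to 11.4 CPM, and Zpbp from 466 to 12 CPM. For 7 of the 33 the level here was the higher one. Crisp2, a secretory protein of the acrosome and tail, stood at 3441 CPM after 2001 CPM. Sppl2c, an intramembrane protease, stood at 858 CPM after 530 CPM. Cylc1 and Cylc2, which encode cylicins of the calyx beneath the acrosome, stood at 522 and 1153 CPM after 435 and 1109 CPM, and Cylc2 was higher here in only 3 of 6 libraries. The acrosome list took 0.827% ± 0.0331 of UMI here, 1.3% at step 5-6 and 0.793% at step 7-8.

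Genes of the axoneme, the microtubule core of the tail, showed the same direction. Of 45 at 10 CPM or more, 41 were lower than at step 5-6, with a median log2 ratio of -1.73. Tekt4, a tektin of the axoneme, went from 497 to 10.9 CPM and Cfap45 from 479 to 5.68 CPM, while Ropn1l, a radial spoke protein, stood at 1943 CPM after 5640 CPM. Hydin, a central pair protein, was an exception at 794 CPM after 421 CPM, and Meig1, which carries cargo along the manchette, stood at 1508 CPM after 1275 CPM. Pabpc1, a poly(A)-binding protein, was 17.2-fold lower, at 107 CPM. Of 20 sperm ion channel and transporter genes 3 were higher than at step 5-6, beside 1491 of 6893 over all genes. Lower ones include Catsper1 (36.4 CPM after 266 CPM), a calcium channel subunit of the tail.

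The genes with a higher level here than at step 5-6 included those of the outer tail and of head shaping. Of 18 genes for outer dense fibers and the fibrous sheath, 11 were higher than at step 5-6, beside 1491 of 6893 over all genes. The list took 5.86% ± 0.203 of UMI here, 3.14% at step 5-6 and 9.87% at step 7-8. Cabyr (305 CPM after 1628 CPM) and Odf3 (342 CPM after 823 CPM) were lower here. The manchette is the microtubule skirt that shapes the head. A list of manchette and head-shaping genes had a larger share in this class than in the other 5 of the 6 spermatid classes compared. The list took 1.77% ± 0.0766 of UMI here, 1.40% at step 5-6 and 1.18% at step 7-8. That a gene is on this list does not show that its protein belongs to the manchette. Hook1 (2650 CPM), Fam71d (3558 CPM), Fam71f1 (2493 CPM) and Clip4 (1107 CPM) were each highest here, and Spata6, needed for the head to tail joint, was 1.88-fold its step 5-6 level. By median the manchette list was lower than at step 5-6 (log2 ratio -1.07), near the -1.10 over all 6893 genes at 10 CPM or more. Of its 29 genes at that level 18 were lower, and the higher ones were abundant. The kinase genes Tssk2 (1809 CPM) and Tssk3 (862 CPM) were 1153 and 464 CPM at step 5-6.

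For many genes CPM and UMI per cell gave different directions, since a cell here held 7408 UMI after 14032. Of the 2065 genes, 550 were higher in CPM but lower in UMI per cell, and 208 were higher per cell. Smcp was higher on both scales (142 after 112 UMI per cell), as were Tnp2, Prm2, Prm1, Cby3 and Car2. Fam71f1 was near level per cell (22.5 and 21.9 UMI), Fam71d was 32.7 and 31.3, and Hook1 was 31.1 and 23.2. Car2, carbonic anhydrase 2, stood at 1376 CPM after 302 CPM, or 12.1 after 4.83 UMI per cell. In these sums, fewer cells that hold a transcript and less of it in each cell cannot be told apart.

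**Figure D2:**
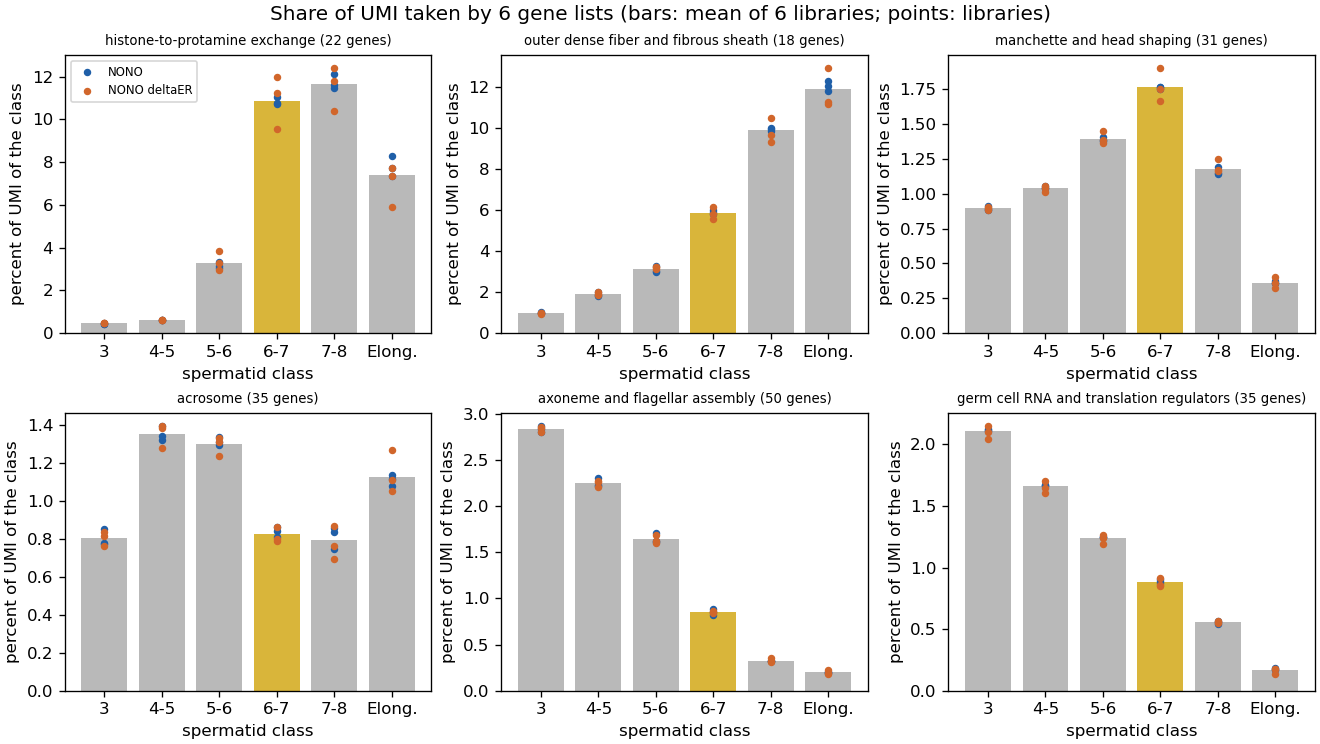
Percent of all UMI taken by 6 gene lists in 6 spermatid classes. Bars are means of 6 libraries, points are single libraries coloured by genotype, and the class Round ST(Step 6-7) is the yellow bar. Of the 6 classes the manchette list is largest in that one at 1.77%, the protamine list reaches 10.9%, the fibrous sheath list lies between its neighbours at 5.86%, and the axoneme and RNA regulator lists are smaller than in the earlier classes.

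Against step 7-8, another set of transcripts was abundant here and scarce there. Among 1371 genes at 100 CPM or more in either class, 811 were higher and 473 lower in the present class in 6 of 6 libraries, and 199 were higher by 10-fold or more. Ccdc185 had the largest ratio, with 472 CPM here and 2.05 CPM at step 7-8. Ybx1, a cold shock domain protein that binds mRNA, stood at 2705, 3003, 2886, 2733, 2743 and 3017 CPM in TA to TF, with 35.7 CPM at step 7-8, a 79.8-fold difference. All 6 libraries lay close together. Its germ cell relative Ybx2, which holds protamine mRNAs in storage, differed little, at 2942 CPM here and 3042 CPM at step 7-8. Fam71f1 was 102-fold and Fam78a 133-fold higher than at step 7-8, as ratios of mean CPM. Meig1 was 27.1-fold, Tex37 25.3-fold and Aif1, an actin-binding protein, 17.4-fold higher.

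Ribosomal protein genes did not share a direction. Of 48 measured genes, 35 reached 10 CPM, and 22 of these were higher and 13 lower here than at step 7-8. Over all 6893 genes at that level, 5517 were higher here than at step 7-8, a larger share. Rps7 stood at 1453 CPM against 26.9 CPM, Rplp0 at 1589 against 107 CPM, and Rpl13 at 691 against 6.33 CPM. Rpl13a (240 against 392 CPM), Rps12 (149 against 223 CPM) and Rps20 (225 against 295 CPM) were lower here. The list took 0.890% ± 0.0390 of UMI here, 0.708% at step 5-6 and 0.374% at step 7-8.

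Genes with a lower level here than at step 7-8 included tail and energy genes. Odf1, an outer dense fiber protein, stood at 1444, 1448, 799, 1125, 942 and 1247 CPM in TA to TF and at a mean of 3026 CPM at step 7-8 and 5887 CPM in Elongated ST. Spem2 was at 547 against 1449 CPM, and Aldoa, Sord and Hk1, which encode enzymes of sugar metabolism, at 328, 1668 and 1620 CPM against 827, 3815 and 3685 CPM. Gm42418, Peak1, Spem2 and Zc3h7a had the largest differences, at 2.89-fold, 2.71-fold, 2.65-fold and 2.63-fold. Of the 1371 genes 0 were lower by 10-fold. Of the 1371 genes, 364 were lower here in CPM and yet higher in UMI per cell.

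Within the class, cells of low and high UMI differed in level for several genes. Cells of each library were put in 4 groups of about equal number by UMI, a range and not a type, with medians of 4290.5, 6223.5, 8760 and 13967 UMI. From the lowest to the highest group Ybx1 went from 1700 to 3694 CPM and Phf7 from 2262 to 3336 CPM, while Prm2 went from 79580 to 59078 CPM and Smcp from 20953 to 13871 CPM. Tnp2 went from 26458 to 31753 CPM and Prm1 from 2508 to 1971 CPM. In Ybx1, Phf7, Prm2 and Smcp the cells with fewest UMI thus differed from those with most in the direction of step 7-8. Prm1 went the other way, being higher in the cells with fewest UMI although its level at step 7-8 was lower. The part of depth itself was not tested. A Ybx1 UMI was read in 76.5% of the cells, with a median of 9 UMI and quartiles of 1 and 41, against 14.1% at step 7-8. With every cell thinned to 2000 UMI (13 of 8790 cells were too shallow), the shares were 63.1% and 6.40%. Sertoli cells, at a median of 1836 UMI, had Ybx1 in 74.0% unthinned, and in 66.2% of the 783 that could be thinned. Ybx1 is a gene that is not restricted to germ cells. Prm2 was read in all 8790 cells, with a median of 524 UMI and quartiles of 369 and 728.

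X-linked genes took 1.69% ± 0.0666 of UMI here, between 1.49% at step 5-6 and 1.95% at step 7-8. Y-linked genes took 0.0200%, down from 0.0750% at step 5-6, and 0.00750% at step 7-8. Akap4 was the X-linked gene among the 20 most abundant.

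Few transcripts of Nono itself were read in these cells. Nono gave 3, 7 and 4 UMI in the NONO libraries and 4, 5 and 5 UMI in the NONO deltaER libraries, a mean of 0.385 CPM in all. The counts of the genotypes overlapped, and Nono was too low to be tested. Its partners of the same protein family were also low, Sfpq at 7.04 CPM and Pspc1 at 3.57 CPM. In Sertoli cells Nono reached 72.4 CPM. These counts do not check the genotype labels, as the labels do not say that the alteration changes the amount of mRNA.

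The genotype comparison asks whether the class differs in number or RNA with the altered NONO. Its share of all cells overlapped between the genotypes. It made up 18.6%, 14.7% and 19.7% of cells in TA, TB and TC and 23.8%, 18.8% and 18.8% in TD, TE and TF. The means were 17.7% ± 2.65 and 20.5% ± 2.90 (SD, n = 3 each). Their difference had a two-sided exact permutation p = 0.4, where 3 against 3 cannot go below 0.1. By mitochondrial percent over all cells the libraries formed 2 sets, TA, TB, TF (0.462% to 0.507%) and TC, TD, TE (0.226% to 0.342%). The share was 2.15 percentage points higher in NONO deltaER inside the former set and 1.62 inside the latter. Median UMI per cell was 7150 ± 486 and 7666 ± 858 (SD, n = 3 each, exact permutation p = 0.4), and the NONO deltaER minus NONO difference was -629 UMI in the former set and 1320 UMI in the latter, opposite in sign. Median genes per cell were 1707 ± 61.4 and 1740 ± 51.8 (SD, n = 3 each, exact permutation p = 0.5).

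**Figure D3:**
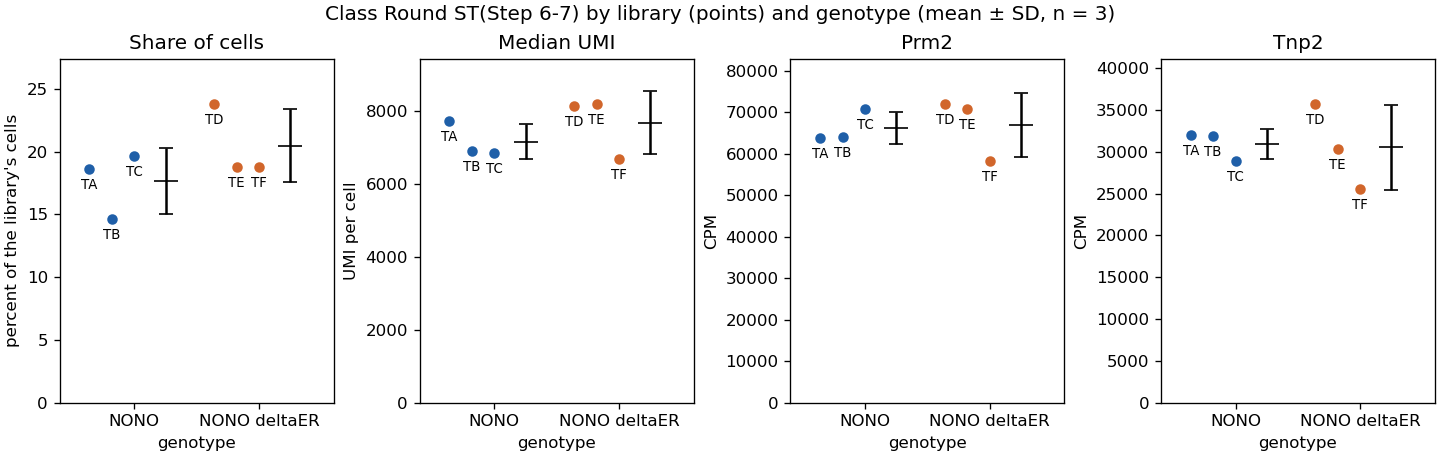
The class by genotype: share of the library's cells in percent, median UMI per cell, and CPM of Prm2 and Tnp2, all from 0. Points are libraries with their letters, and bars are mean ± SD of 3 libraries. The genotypes overlap in every panel, with 17.7% against 20.5% of cells in the first.

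No gene passed the test by genotype as planned, and 3 alternatives called a few. Of 10911 genes, edgeR's quasi-likelihood test called 0 at an adjusted p of 0.05 (0% of the genes tested), with a lowest Benjamini-Hochberg adjusted p of 0.960. Without adjustment 353 genes (3.24%) lay under 0.05, 165 higher (1.51%) and 188 lower (1.72%) in NONO deltaER, and DESeq2 called 0 with 144 genes under 0.05 unadjusted. With no filter on low counts edgeR called 21 genes, without library TC 8 and without library TF 3. For 869 genes (7.96%) all libraries of one genotype lay above all of the other, 504 of them higher (4.62%) and 365 lower (3.35%) in NONO deltaER. The genes of protamines and transition protein 2 differed little. The log2 fold change (NONO deltaER over NONO) was 0.01 ± 0.08 (SE) for Prm2, -0.02 ± 0.11 for Tnp2, -0.08 ± 0.31 for Prm1 and 0.01 ± 0.07 for H1fnt, with libraries overlapping in each (edgeR adjusted p = 1 for each).

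The genes given here are the 10 of lowest p in each direction among those whose libraries did not overlap between genotypes. Their lack of overlap therefore follows from this choice and is no result. They were mostly faint. Gm17660, a predicted gene, stood at 8.88, 9.39 and 10.4 CPM in TA, TB and TC and at 16.8, 15.7 and 13.7 CPM in TD, TE and TF. Its log2 fold change was 0.69 ± 0.13 (SE) with an unadjusted p of 8.8e-05 and an edgeR adjusted p of 0.960. Olfr77, an olfactory receptor gene, stood at 13.1, 10.5 and 8.20 CPM and at 5.82, 6.99 and 5.98 CPM. Its log2 fold change was -0.78 ± 0.17 (edgeR adjusted p = 1, and 0.00182 with no filter on low counts). Gm5432 stood at 19.9, 15.1 and 10.1 CPM and at 8.63, 8.30 and 9.33 CPM. Nmnat3, an enzyme of mitochondrial NAD synthesis, stood at 20.7, 19.1 and 22.1 CPM and at 30.5, 24.3 and 29.2 CPM. Prokr1, a prokineticin receptor, stood at 19, 24 and 21.2 CPM and at 29.1, 25.9 and 28.2 CPM. The other genes named by the rule ranged from 0.641 CPM (Slc35f5) to 15.6 CPM (Aff3), with an edgeR adjusted p of 1 for each. Higher in NONO deltaER were Gm32479, Auts2, Fam189a2, Gm12472, Aff3, Nsmce2 and Gm35822, and lower were Cped1, Ago2, Adamts6, Dgki, Slc35f5, Echdc1, Tpx2 and Slc22a27.

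Gene groups were near 0 by genotype. Over all 10911 genes the median log2 fold change was 0.00, and 0 members were called in each of the 16 lists. The median was -0.02 for the 19 tested genes of histone-to-protamine exchange, -0.03 for 33 acrosome genes and 0.00 for 49 axoneme genes. It was -0.00332 for 18 genes of dense fibers and fibrous sheath, -0.01 for 30 manchette-list genes and -0.03 for 44 ribosomal genes. The DBHS and paraspeckle list holds the family of NONO together with other paraspeckle genes. Its 13 tested genes had a median of -0.11, with 5 above and 8 below 0, and Nono itself was too low to be tested. Of its 18 measured genes, 9 reached 10 CPM in this class or a neighbouring one. The mitochondrially encoded genes had the median farthest from 0, at 0.20 over 12 genes. Among them mt-Cytb stood at 15.3, 15.1 and 19.9 CPM in TA, TB and TC and at 25.9, 27.6 and 21.5 CPM in TD, TE and TF (log2 fold change 0.57 ± 0.13, edgeR adjusted p = 1, and 0.00485 with no filter on low counts). The genotypes did not overlap for mt-Cytb, as for 7.96% of all genes tested. It had the highest log2 fold change of the 12, of which 9 lay above and 3 below 0, the lowest at -0.38. Of the 12, 1 had an unadjusted edgeR p under 0.05. The mitochondrial percent of a cell, averaged over the cells of a library, was 0.0174% in NONO and 0.0212% in NONO deltaER (exact permutation p = 0.3, n = 3 each).

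**Figure D4:**
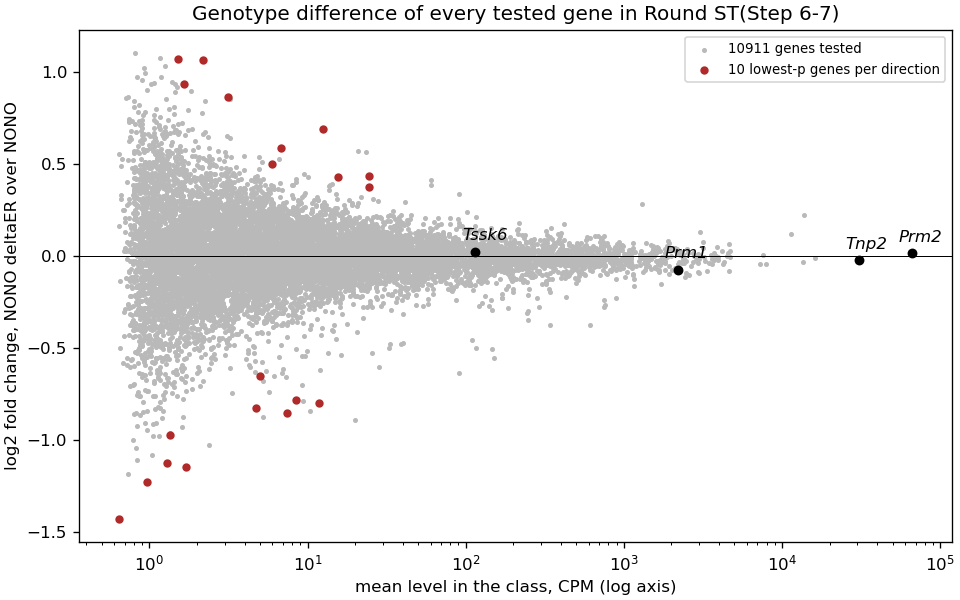
Genotype difference of 10911 genes in the class: mean CPM (horizontal, log axis) against the log2 fold change of NONO deltaER over NONO (vertical). Grey points are all tested genes, red points the 10 genes of lowest p in each direction whose libraries do not overlap, and 4 named genes are black. The spread narrows with level, and the red genes lie at 24.6 CPM or below.

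No gene's genotype difference in the class differed past the threshold from that in a neighbouring class. For each gene the log2 ratio of the class to a neighbour was taken in each library and compared between genotypes by limma. Against step 5-6, 0 of 2968 genes (0%) passed an adjusted p of 0.05, with 102 (3.44%) under 0.05 unadjusted and a lowest adjusted p of 0.311. Against step 7-8, 0 of 1981 genes passed, with 81 (4.09%) under 0.05 unadjusted and a lowest adjusted p of 0.702. A p that misses the threshold does not show that the classes or the genotypes act alike.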

How the data were processed

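Single-cell RNA sequencing of mouse testis gave the authors' deposited matrix of UMI counts (whole numbers, not normalized), with Cell Ranger 2.1.1 and mm10 per the submitters' processing notes. The deposited cell table gives library, genotype group, cell classes and a mitochondrial percent, which the authors computed. The sources used here do not give the cell filters. The lowest UMI total of any cell was 500 and the highest mitochondrial percent 5.00. The members, gene lists and tests were chosen with earlier results of these data known. Doublets were not called. One alternative leaves out the 5% of cells with the most UMI.

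UMI were summed per library and class, since cells are not replicates. The genotypes were compared by edgeR 4.0.16 in R 4.3.3 (TMM, filterByExpr, robust quasi-likelihood fit, Benjamini-Hochberg over all genes tested). DESeq2 1.42.0 was an alternative and limma 3.58.1 tested ratios to neighbouring classes for genes of at least 20 CPM in both, with 0.5 CPM added. Both steps were tested on simulated data. Shares and medians used exact permutation tests over libraries. Class levels are means of 6 library CPM, and rankings against a neighbour add 1 CPM. Named genes were the marker, NONO family and list genes, the 20 most abundant, the 15 of largest ratio to the other classes at 50 CPM or more, the 15 of largest ratio per direction and neighbour at 100 CPM or more in 6 of 6 libraries, and by genotype the 10 of lowest p per direction without overlap, as none passed the threshold. Mitochondrial genes were left out of the rankings. Positions come from GENCODE M21 by symbol (25127 of 25771 matched 1 gene) and promoters from RefSeq. Library totals were 81042216 to 110018960 UMI.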

Additional observations from a re-analysis of the deposited data

How the results depend on the processing

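The genotype test called 0 genes under 10 of its 13 alternatives: DESeq2, RLE factors, the library set as a covariate, cells of at least 1000 UMI, without the 5% of cells with the most UMI, equal numbers of cells per library, and leaving out TA, TB, TD or TE. With no filter on low counts edgeR called 21 genes (3 higher and 18 lower in NONO deltaER), all of them also among those of the filtered fit, with a lowest adjusted p of 0.000318, and the cause was not tested. They include Gm5432, Cped1, Olfr77, Gm17660, Adamts6, Auts2 and mt-Cytb. Summed over the libraries the 21 genes had a median of 934 UMI, but not all were faint. Bspry held 25963 UMI (log2 fold change -0.36, edgeR adjusted p = 0.0252 with no filter). Camk2n1 held 8806 UMI (-0.49, adjusted p = 0.01) and Siah2 8415 UMI (-0.45, adjusted p = 0.00489) in the same fit. Leaving out 1 library each gave from 0 to 8 calls: 8 without TC, all lower in NONO deltaER, and 3 without TF, of which 2 were higher. The higher ones without TF were Gm17660 and the abundant Gm42418, for which TF was the lowest library. Gm42418 held 102434 UMI (log2 fold change 0.52, edgeR adjusted p = 0.0305 without TF). The share difference kept its sign when single libraries were left out (1.14 to 3.83 percentage points), as did that of median UMI (255 to 1011 UMI), and neither turned with germ cells as the denominator (share only) or with cells of at least 1000 UMI. Both neighbour comparisons by limma gave 0 calls under every alternative, leave-one-out included. Taking each cell's CPM with equal weight moved 6 of 40 level ratios by over 1 SD (Ybx1, Phf7, Prm2, Tnp2, Odf1 and Smcp), and all 40 kept their direction. No paired analysis was possible because the deposited cell table does not tie libraries TA to TF to the replicate numbers of the labels. All p-values rest on 3 libraries per genotype. UMI of abundant spermatid transcripts occur in somatic classes too, and the part of such RNA in the low levels given here was not tested.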

Other observations

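Energy genes were measured too. Of 29 nuclear genes of oxidative phosphorylation at 10 CPM or more, 7 were higher in the class Round ST(Step 6-7) than at step 5-6 and 22 higher than at step 7-8, shares near those over all 6893 genes at that level (1491 and 5517), and the list took 0.133% ± 0.00627 of UMI (SD, n = 6). The list of sperm glycolysis took 1.06% ± 0.0380 of UMI, up from 0.771% at step 5-6 and below the 1.46% of step 7-8. Pgk2, the testis form of phosphoglycerate kinase, stood at 1958 ± 111 CPM, and Gpi1 at 1596 ± 53.3 CPM, while Ldhc, the sperm lactate dehydrogenase, stood at 1024 CPM here and at 160 CPM at step 7-8.

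Regulators of spermatid transcription were mostly lower than in the class before. Of 19 on that list at 10 CPM or more, 2 were higher here than at step 5-6, beside 1491 of 6893 over all genes. The list still took 0.883% of UMI after 0.897%, since Spz1 alone stood at 7273 CPM here and 3732 CPM there. Crem stood at 116 ± 4.23 CPM after 639 CPM, Sox30 at 252 after 525 CPM and Sox5 at 103 after 942 CPM. The list of ubiquitin, proteasome and cytoplasm removal genes took 1.28% of UMI after 1.16%. Only 7 of its 20 genes at 10 CPM or more were higher than at step 5-6, so the share does not describe most of them. Ube2j1, a ubiquitin-conjugating enzyme of the endoplasmic reticulum, stood at 3006 ± 196 CPM after 1361 CPM. The ubiquitin ligase gene Trim36 stood at 1869 CPM here and 59.5 CPM at step 7-8. None of these class differences has a test, since the classes were made from the same cells.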
